A study of Mus musculus with 8 samples.

Results

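The cyclins and kinases that drive the exit from meiotic prophase I were followed in pachytene spermatocytes with and without ARID1A. This protein is the putative DNA-binding subunit of the BAF chromatin remodeler. The set holds 10 genes chosen by name, namely *Ccna1*, *Ccna2*, *Ccnb1*, *Ccnb2*, *Cdk1*, *Cdk2*, *Cdc25c*, *Plk1*, *Aurkb* and *Aurkc*, out of 21058 genes in the deposited tables. All 10 were found in the tables and all 10 had enough counts to be tested. RNA was sequenced from 4 *Arid1a* WT and 4 *Arid1a* cKO samples of spermatocytes, purified from pooled testes of adult males by Sta-Put sedimentation, which separates cells by how fast they settle. The labels call the samples biological replicates, but whether they came from separate purifications is not given in the sources used here, so p-values measure the spread between these samples, which may be technical. In the *Arid1a* cKO males, which were *Arid1a* fl/fl, 1 copy of *Stra8-Cre* was present, a transgene active in spermatogonia, whereas *Arid1a* WT males were *Arid1a* fl/fl or *Arid1a* fl/+ without it, so the deletion and the presence of Cre cannot be told apart. The floxed allele was kept on a CD1 background. Excision by *Stra8-Cre* was incomplete, and the *Arid1a* cKO samples therefore also contained spermatocytes that still made ARID1A.

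Entry into the meiotic divisions is driven by cyclin-dependent kinases, which work only when bound to a cyclin. CDK1 bound to a B-type cyclin is held inactive by inhibitory phosphorylation from WEE1 and PKMYT1 and is switched on when CDC25 phosphatases remove it. Polo-like kinase 1 promotes this switch, and Aurora B and its germ-cell relative Aurora C act at centromeres within the chromosomal passenger complex. Cyclin A1 is restricted to the germ line and is required in males for the end of meiotic prophase. CDK2 also sits at telomeres and crossover sites of pachytene chromosomes, and male mice without it are sterile.

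Genes of the G2 and M phases of the cell cycle often carry CCAAT boxes and a cell cycle homology region, TTTGAA or TTTAAA, close to their start site. To show how the members that rose and the members that fell compare in these letters, the promoters of *Ccnb1*, *Ccnb2* and *Plk1*, which rose in *Arid1a* cKO, are given beside those of *Cdk1* and *Cdk2*, which fell. Each run is 280 bases of RefSeq sequence on GRCm38.p6, from 250 bases before the annotated start to 30 bases after it, written 5′ to 3′ on the strand of the gene, with matches to the 3 motifs on either strand in capitals (CCAAT read on the other strand is ATTGG).
Ccnb1 (chr13:100786457-100786736, minus strand): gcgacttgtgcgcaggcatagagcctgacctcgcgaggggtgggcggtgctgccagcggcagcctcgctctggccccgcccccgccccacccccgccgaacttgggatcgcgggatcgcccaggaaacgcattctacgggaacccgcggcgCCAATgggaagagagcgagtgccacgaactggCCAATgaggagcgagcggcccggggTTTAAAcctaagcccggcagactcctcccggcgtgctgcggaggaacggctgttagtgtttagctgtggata
Ccnb2 (chr9:70421525-70421804, minus strand): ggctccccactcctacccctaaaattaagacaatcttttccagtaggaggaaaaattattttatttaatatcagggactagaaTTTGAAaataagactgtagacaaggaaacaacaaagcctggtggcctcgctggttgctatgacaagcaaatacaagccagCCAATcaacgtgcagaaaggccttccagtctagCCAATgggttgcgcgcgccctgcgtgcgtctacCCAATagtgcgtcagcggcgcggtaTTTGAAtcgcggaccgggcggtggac
Plk1 (chr7:122159185-122159464, plus strand): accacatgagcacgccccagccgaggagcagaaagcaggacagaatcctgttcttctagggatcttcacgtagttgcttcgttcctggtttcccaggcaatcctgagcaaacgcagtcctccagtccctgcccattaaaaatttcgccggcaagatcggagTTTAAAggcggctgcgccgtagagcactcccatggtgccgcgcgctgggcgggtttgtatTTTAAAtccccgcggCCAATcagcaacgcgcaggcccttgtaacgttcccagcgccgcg
Cdk1 (chr10:69352883-69353162, minus strand): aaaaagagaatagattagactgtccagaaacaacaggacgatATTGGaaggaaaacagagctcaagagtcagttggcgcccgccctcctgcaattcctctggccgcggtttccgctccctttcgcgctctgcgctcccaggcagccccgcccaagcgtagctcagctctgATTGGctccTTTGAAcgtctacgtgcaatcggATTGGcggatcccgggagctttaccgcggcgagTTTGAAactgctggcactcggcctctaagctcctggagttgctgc
Cdk2 (chr10:128705022-128705301, minus strand): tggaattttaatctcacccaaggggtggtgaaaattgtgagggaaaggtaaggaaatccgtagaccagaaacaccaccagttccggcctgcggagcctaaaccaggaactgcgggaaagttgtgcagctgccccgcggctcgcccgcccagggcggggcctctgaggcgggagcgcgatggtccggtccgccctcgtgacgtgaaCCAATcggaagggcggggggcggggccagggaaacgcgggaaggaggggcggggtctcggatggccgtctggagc
*Ccnb1*, *Ccnb2*, *Plk1* and *Cdk1* held at least 1 CCAAT and at least 1 TTTGAA or TTTAAA in this window, and *Cdk2* held a CCAAT alone. The promoters of *Ccna1*, called higher, and *Aurkc*, called lower, are not printed, and each also held 1 CCAAT alone. *Ccnb2* and *Cdk1* each had 3 CCAAT and 2 TTTGAA matches, although the RNA of *Ccnb2* rose and that of *Cdk1* fell. The promoters of *Ccna2*, *Aurkb* and *Cdc25c*, the member with the largest rise, were not examined. The motif counts over members cover the promoters of the other 7 of the 10 members. CCAAT was present in 7 of these and TTTGAA or TTTAAA in 4, where 36.1% and 26.7% of 32841 promoters of the same length held them. No match of one motif overlapped a match of another in these promoters. A match describes the letters in this window and no more.

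The libraries held 15850961 to 22044507 estimated counts, and the counts of a member in a library ran from 201 to 5045. *Arid1a* RNA was present at 113 ± 13.8 CPM (counts scaled to library size with TMM, SD, n = 4) in *Arid1a* WT and at 79.7 ± 2.89 CPM (SD, n = 4) in *Arid1a* cKO, a log2 fold change of -0.51 (SE 0.07, edgeR adjusted p = 2.31e-05). The counts cover the whole gene, of which the floxed exons are a part, so RNA of the deleted allele may be counted with the rest. The 8 markers of pachytene and later spermatocytes were all detected, and their summed transcript level was 7758 to 8849 TPM (transcript level scaled for length and depth) in *Arid1a* WT and 6168 to 6564 TPM in *Arid1a* cKO. Marker RNA of other cells of the testis moved with genotype too. All 10 measured spermatid markers were called higher in *Arid1a* cKO, with log2 fold changes of 1.79 to 2.37, and their summed level was 6072 to 6900 TPM in *Arid1a* WT and 25101 to 26901 TPM in *Arid1a* cKO. All 5 Leydig cell markers and all 5 tested Sertoli cell markers were lower in *Arid1a* cKO, from 76.2 to 89.0 TPM down to 6.57 to 8.30 TPM for Leydig cells and from 102 to 116 TPM by a log2 ratio of -1.84 for Sertoli cells, where *Rhox5* was at 0 in every library. Of 9 spermatogonia markers 8 were called higher (a log2 ratio of summed TPM of 0.42). The leptotene and zygotene markers were mixed, with 5 of 8 called higher and 3 lower, and so were the macrophage and blood markers, with 4 of 6 higher and 1 lower at a summed level of at most 10.2 TPM. The part of these cells in the results on the members was not tested. In bulk RNA, fewer cells of a type and less RNA per cell cannot be told apart.

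Genotypes were compared by edgeR (quasi-likelihood) on rounded counts of 17643 genes, with 0.05 as the limit on the Benjamini-Hochberg adjusted p for a call. Of the 10 members, 6 were called higher in *Arid1a* cKO, which were *Cdc25c*, *Ccnb1*, *Plk1*, *Ccna2*, *Ccnb2* and *Ccna1*. The direction of *Ccna1* turned when the tool and the scaling were changed together. The 4 called lower were *Cdk2*, *Aurkb*, *Cdk1* and *Aurkc*. Among all genes tested 36.5% were called higher and 37.5% lower, 74.0% in either direction, so that being called is common in this comparison. The CPM values of the genotypes did not overlap at any of the 10 members, as was true of 68.9% of the genes tested. RNA of the B-type cyclins, *Cdc25c* and *Plk1* thus rose, while RNA of *Cdk1* and *Cdk2* fell. The median log2 fold change was 0.45 over the members and -0.02 over all genes tested.

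**Figure D1:**
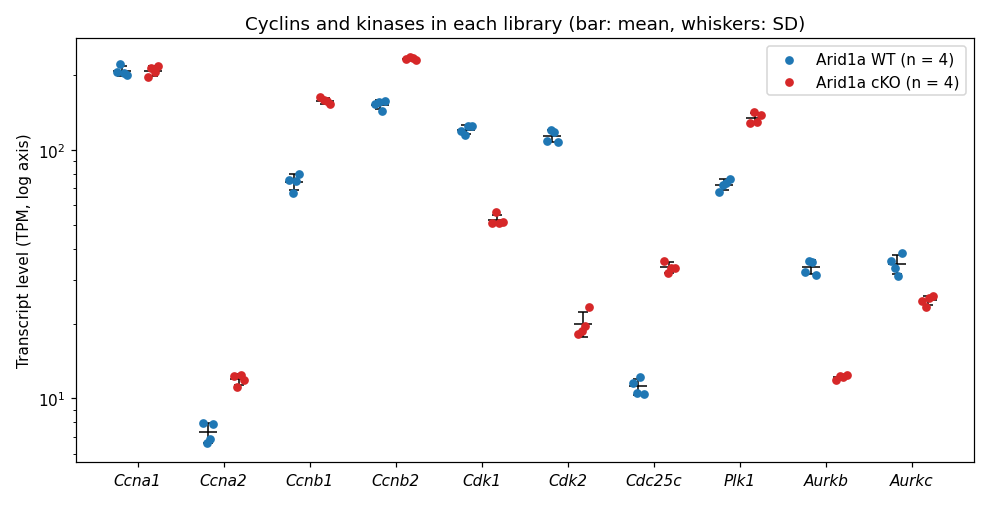
Transcript level of each member in TPM on a log axis, with 1 point per library for 4 *Arid1a* WT (blue) and 4 *Arid1a* cKO (red) libraries, a bar at the mean and whiskers of 1 SD. The genotypes are apart at 9 of the 10 members and lie over each other at *Ccna1*, with means of 207 and 208 TPM.

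*Ccna1* was the most abundant member in *Arid1a* WT. Its level was 205, 220, 204 and 199 TPM in *Arid1a* WT replicates 1 to 4 and 195, 214, 205 and 218 TPM in *Arid1a* cKO replicates 1 to 4, so the genotypes overlapped on this scale. In CPM the libraries were apart, at 176, 176, 168 and 174 against 186, 196, 187 and 199. The log2 fold change of *Ccna1* was 0.15 (SE 0.04, edgeR adjusted p = 0.00851), a 1.11-fold difference. The direction of this small difference turned, to -0.14 (limma adjusted p = 0.0171), with TPM rescaled to sum to the same total over the listed genes. That setting, chosen after seeing the data, changes the tool and the scaling together, and the cause of the turn was not tested. No difference was called with limma on log2(TPM + 1) (0.0061) or with edgeR without TMM (0.050). *Ccna1* lies on chromosome 3 of GRCm38 from 55045469 to 55057634, and an antisense gene covers 10.1% of its exonic bases. How the counting used strand is not given in the sources used here, so reads of antisense partners may have been counted together.

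*Ccna2*, the A-type cyclin of dividing somatic cells and spermatogonia, was the least abundant member in *Arid1a* WT, and in *Arid1a* cKO its TPM overlapped those of *Aurkb* at the bottom of the order. Its level was 7.93, 6.61, 6.87 and 7.86 TPM in *Arid1a* WT and 12.4, 11.1, 12.4 and 11.9 TPM in *Arid1a* cKO. Every *Arid1a* cKO library was higher than every *Arid1a* WT library, and *Ccna2* rose by 0.87 on the log2 scale (SE 0.08, edgeR adjusted p = 2.20e-07). The 9 spermatogonia markers, which do not include *Ccna2*, had log2 fold changes of 0.27 to 1.16 in the same libraries, and their part in this rise was not tested. *Exosc9*, on the opposite strand, covers 12.5% of the exonic bases of *Ccna2* (chromosome 3, 36564865 to 36573038). *Ccna1* made up 96.2% to 97.1% of the A-type cyclin TPM in *Arid1a* WT and 94.0% to 95.1% in *Arid1a* cKO.

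Both B-type cyclins rose. *Ccnb1* (chromosome 13, 100778739 to 100786486) encodes cyclin B1, the main partner of CDK1 in division. It was found at 75.6, 66.9, 74.6 and 79.8 TPM in *Arid1a* WT and at 162, 158, 157 and 152 TPM in *Arid1a* cKO. All 4 *Arid1a* cKO libraries lay well above the *Arid1a* WT libraries, at a log2 fold change of 1.22 (SE 0.06, edgeR adjusted p = 2.57e-10), or 2.34-fold. Of the 31-base words in *Ccnb1* transcripts 22.9% also occur in *Ccnb1-ps*, so some of its reads may have been divided with this copy. *Ccnb2* (chromosome 9, 70407689 to 70421554), which shares no 31-base word with another gene, encodes cyclin B2 and was at 153, 155, 143 and 157 TPM in *Arid1a* WT and at 231, 236, 233 and 229 TPM in *Arid1a* cKO. Its rise of 0.75 on the log2 scale (SE 0.05, edgeR adjusted p = 9.51e-09) made it the most abundant member in *Arid1a* cKO. *Ccnb1* and *Ccnb2* together went from 218 to 236 TPM up to 381 to 394 TPM.

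RNA of both cyclin-dependent kinases among the members fell. *Cdk2* showed the largest change of the 10 members, from 109, 120, 118 and 107 TPM in *Arid1a* WT to 18.2, 18.7, 19.5 and 23.3 TPM in *Arid1a* cKO. The highest *Arid1a* cKO library was far below the lowest *Arid1a* WT library. The log2 fold change of *Cdk2* (chromosome 10, 128697938 to 128705051) was -2.53 (SE 0.05, edgeR adjusted p = 4.78e-14), which is 5.79-fold lower, and it stayed between -2.63 and -2.42 under the 18 alternatives run. Only 1.15% of its 31-base words occur in another gene. *Cdk1* (chromosome 10, 69335146 to 69352912) was at 119, 114, 124 and 124 TPM in *Arid1a* WT and at 50.8, 56.1, 50.8 and 51.4 TPM in *Arid1a* cKO. It fell by 0.98 on the log2 scale (SE 0.06, edgeR adjusted p = 1.38e-09), with replicate 2 standing somewhat above the other 3 *Arid1a* cKO libraries in TPM but not in CPM. *Cdk1* and *Cdk2* together went from 227 to 242 TPM in *Arid1a* WT to 69.0 to 74.8 TPM in *Arid1a* cKO.

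**Figure D2:**
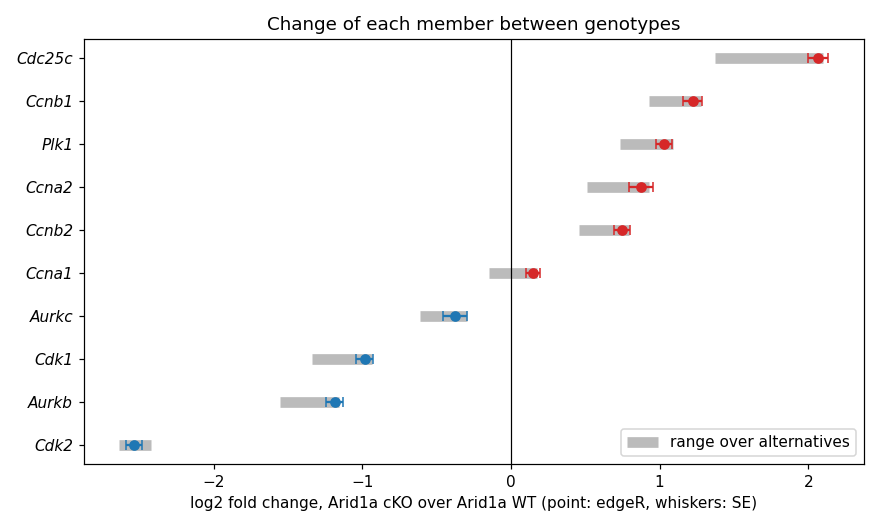
Log2 fold change of each member, *Arid1a* cKO over *Arid1a* WT, with the edgeR estimate as a point, its SE as whiskers and the range over 18 alternatives as a grey band. *Cdk2* lies lowest at -2.53 and *Cdc25c* highest at 2.07, and the band of *Ccna1* alone crosses 0.

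*Cdc25c* encodes a phosphatase that activates CDK1. It was weakly expressed in *Arid1a* WT, at 11.5, 10.6, 12.2 and 10.4 TPM, and reached 35.7, 31.9, 33.4 and 33.4 TPM in *Arid1a* cKO, with no overlap. This was the largest rise of the 10 members, at a log2 fold change of 2.07 (SE 0.07, edgeR adjusted p = 1.08e-12). The rise was smaller once transcript length was allowed for (1.68) and on the log2(TPM + 1) scale after rescaling to the listed genes (1.38), and it was called in each. The value of 2.07, before any allowance for length, lies inside the range of the spermatid markers measured in the same way, 1.79 to 2.37, and their part in this rise was not tested. *Cdc25c* lies on chromosome 18 from 34732993 to 34751564, where *Gm3550* on the opposite strand covers 12.7% of its exonic bases.

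The rest of the switch that sets CDK1 phosphorylation was split. Of 12 listed genes 4 were called higher, 7 lower and 1 (*Wee2*, which was at 0.109 TPM or less) was not called. The other 2 members of the CDC25 family rose with *Cdc25c*, *Cdc25a* by 1.38 log2 units (24.5 to 31.4 TPM against 57.4 to 66.0 TPM) and *Cdc25b*, which stayed at 2.77 TPM or less, by 1.08. The inhibitory kinases went opposite ways. *Wee1* rose by 0.99 log2 units (16.6 to 18.3 TPM against 29.8 to 32.1 TPM), whereas *Pkmyt1* fell by 1.24 (70.4 ± 5.11 TPM against 27.7 ± 0.508 TPM, SD, n = 4). *Ensa*, whose phosphorylated product inhibits the phosphatase that opposes CDK1, fell by 1.03 log2 units.

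*Plk1* (chromosome 7, 122159435 to 122169884) was at 67.8, 71.9, 73.4 and 76.4 TPM in *Arid1a* WT and at 127, 142, 129 and 137 TPM in *Arid1a* cKO. The genotypes did not overlap, and polo-like kinase 1 RNA rose by 1.03 log2 units (SE 0.05, edgeR adjusted p = 2.88e-10). Of its 31-base words 14.8% also occur in *Plk-ps1*. In *Arid1a* WT *Plk1* and *Ccnb1* had overlapping levels, and in *Arid1a* cKO each library of *Ccnb1* was above each library of *Plk1*.

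The Aurora kinases of the chromosomal passenger complex fell. *Aurkb* (chromosome 11, 69045624 to 69051664) went from 32.2, 35.7, 35.5 and 31.5 TPM in *Arid1a* WT to 11.8, 12.3, 12.2 and 12.4 TPM in *Arid1a* cKO. Its values were tight within each genotype and far apart between them, at a log2 fold change of -1.19 (SE 0.06, edgeR adjusted p = 1.83e-10). *Aurkc* (chromosome 7, 6995347 to 7003091), which encodes the germ-cell Aurora kinase, went from 35.6, 33.5, 31.1 and 38.3 TPM to 24.6, 23.3, 25.3 and 25.8 TPM. This was a smaller fall, of 0.38 log2 units (SE 0.08, edgeR adjusted p = 0.000956). The count of *Aurkc* is uncertain, since 67.1% of its 31-base words occur in other genes and 45.3% in *Gm12463* alone.

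Partners of the polo and Aurora kinases did not move as a block, with 3 of 10 called higher, 5 lower and 2 (*Bora* and *Plk3*) not called. *Cdca8*, which encodes the passenger subunit borealin, fell by 1.73 log2 units, from 159 to 174 TPM down to 40.3 to 47.0 TPM, and *Tpx2*, an activator of Aurora A on the spindle, fell by 1.20. *Plk2* fell by 0.89. *Haspin*, whose kinase marks the histone site that recruits the passenger complex, rose by 0.77 log2 units from an already high level (316 to 362 TPM against 502 to 531 TPM). *Incenp*, the scaffold of the complex, and *Plk4*, the centriole kinase, were called higher by 0.35 and 0.24 log2 units. With limma on TPM rescaled to the listed genes their signs flipped, to -0.12 and -0.012. The TPM of both genes overlapped between genotypes, and both calls were lost with limma on log2(TPM + 1), at 0.030 and 0.14.

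Within a library the balance of related genes can be read without any scaling between libraries, and 4 pairs were compared in this way as log2 ratios of TPM. The *Cdk1*/*Cdk2* ratio was 1.09, 0.949, 1.05 and 1.16 in *Arid1a* WT, so that both kinases had like levels, and 2.79, 3.01, 2.61 and 2.20 in *Arid1a* cKO. The log2 ratio was higher by 1.31. The *Aurkb*/*Aurkc* ratio was 0.906, 1.07, 1.14 and 0.822 in *Arid1a* WT and 0.480, 0.526, 0.482 and 0.482 in *Arid1a* cKO, a difference of -0.99 log2 units. The *Ccnb1*/*Ccnb2* ratio went from 0.431 to 0.521 up to 0.665 to 0.702, a difference of 0.48, and *Ccnb2* stayed the more abundant B-type cyclin. The *Ccna1*/*Ccna2* ratio dropped from 25.3 to 33.3 down to 15.8 to 19.3, a difference of -0.70. For each of the 4 pairs the genotypes did not overlap (exact two-sided permutation test over 70 assignments of libraries, p = 0.0286 for each, the smallest p that 4 against 4 allows, and 0.0286 after Benjamini-Hochberg adjustment over the 4 pairs). In each pair, the related genes thus changed by unequal amounts.

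**Figure D3:**
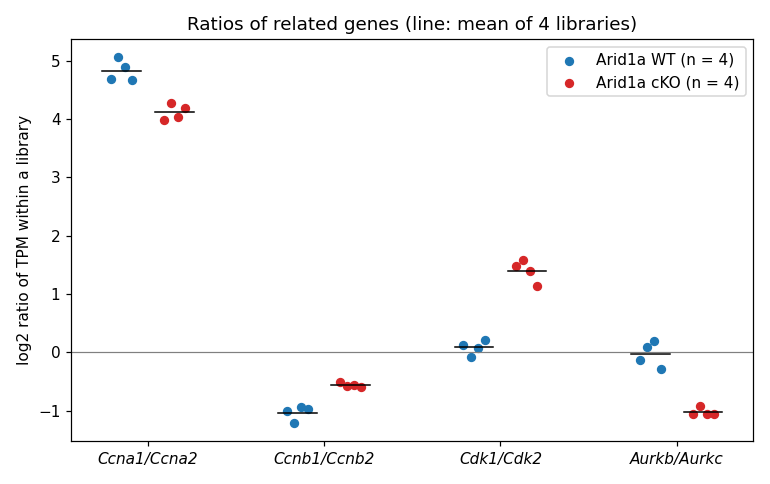
Log2 ratio of TPM within each library for 4 pairs of related genes, with 1 point per library, blue for *Arid1a* WT and red for *Arid1a* cKO, and a line at the mean of 4 libraries. The ratio *Cdk1*/*Cdk2* rises by 1.31 and *Aurkb*/*Aurkc* falls by 0.99, and the genotypes are apart at all 4 pairs.

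Ordered by level in *Arid1a* WT, *Ccna1* (207 ± 9.31 TPM, SD, n = 4) came first, followed by *Ccnb2* (152 ± 6.03), *Cdk1* (120 ± 4.85), *Cdk2* (114 ± 6.61), *Ccnb1* (74.2 ± 5.38), *Plk1* (72.4 ± 3.56), *Aurkc* (34.6 ± 3.05), *Aurkb* (33.7 ± 2.17), *Cdc25c* (11.2 ± 0.835) and *Ccna2* (7.32 ± 0.676). The neighbours *Cdk1* and *Cdk2*, *Ccnb1* and *Plk1*, and *Aurkc* and *Aurkb* overlapped between libraries. In *Arid1a* cKO the order was *Ccnb2* (232 ± 2.77), *Ccna1* (mean 208, from 195 to 218), *Ccnb1* (157 ± 4.12), *Plk1* (134 ± 6.89), *Cdk1* (52.3 ± 2.58), *Cdc25c* (33.6 ± 1.59), *Aurkc* (24.8 ± 1.06), *Cdk2* (19.9 ± 2.32), *Aurkb* (12.2 ± 0.263) and *Ccna2* (11.9 ± 0.616). Of these neighbours *Aurkb* and *Ccna2* alone overlapped. *Cdk2* moved from the fourth place to the eighth and *Cdc25c* from the ninth to the sixth.

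Across 6 lists of genes that act with the members, 78 of 79 listed symbols were matched to a gene. The other, *Speedya*, was an error for *Spdya*, which was therefore not examined. Of the matched genes 21 were called higher, 46 lower and 11 not called, where 36.5% of all genes tested were called higher and 37.5% lower. The counts of each single list, above and below, stand beside these same shares. The median log2 fold change over these 78 genes was -0.30. On log2(TPM + 1) rescaled to the listed genes, 17 were called higher and 52 lower.

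Among other cyclins and partners of CDKs, 4 of 13 genes were called higher, 7 lower and 2 (*Ccne1* and *Cks1b*) not called. *Cks2*, a small subunit that binds CDK1 and CDK2 and is required for male meiosis, fell by 2.68 log2 units (SE 0.06, edgeR adjusted p = 8.28e-14), from 451 to 486 TPM down to 63.2 to 69.4 TPM. This was close to the fall of *Cdk2*. *Ccne2*, an E-type cyclin that binds CDK2, fell by 1.48 (34.9 to 53.1 TPM against 9.67 to 14.7 TPM), and *Ccnb1ip1*, which acts at crossovers, fell by 1.45. Of the D-type cyclins of the G1 phase, *Ccnd3* rose by 2.36 log2 units (19.8 to 26.2 TPM against 103 to 106 TPM) and *Ccnd1* by 1.65, whereas *Ccnd2*, named after its values were seen, was called lower by a small amount (-0.30). The TPM of *Ccnd2* overlapped between genotypes, and its own values under the alternatives were not examined. *Ccnb3*, the X-linked B-type cyclin, rose by 3.34 log2 units, from 0.540 TPM or less to between 3.45 and 3.90 TPM. At such low levels the value depends on the scale, and on log2(TPM + 1) the rise of *Ccnb3* was 1.74, below that of *Ccnd3* (2.16).

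Of 7 genes for inhibitors of CDKs, 3 were called lower, 1 higher and 3 (*Cdkn1a*, *Cdkn2a* and *Cdkn2b*) not called. *Cdkn2d* fell by 1.49 log2 units (141 to 162 TPM against 44.8 to 50.9 TPM), *Cdkn2c* by 0.91 and *Cdkn1b* by 0.89, whereas *Cdkn1c* rose by 1.10. The first 2 encode INK4 proteins that bind CDK4 and CDK6.

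The anaphase-promoting complex, the ubiquitin ligase that destroys B-type cyclins, and its regulators had 7 of 23 genes called higher, 13 lower and 3 (*Anapc5*, *Anapc13* and *Cdc20b*) not called. *Fbxo43*, which encodes the inhibitor EMI2 needed for meiotic divisions in males, had the largest fall in the lists, 3.05 log2 units (SE 0.06, edgeR adjusted p = 4.01e-14), from 49.1 to 51.4 TPM down to 4.47 to 5.59 TPM. Its somatic relative *Fbxo5*, for EMI1, rose by 1.15 from 1.74 TPM or less. The genes of subunits were split, with *Anapc10* up by 1.31 log2 units and *Anapc7* and *Anapc15* down by 1.16 and 1.14. *Ube2c*, the ubiquitin-conjugating enzyme that starts chains on substrates of the complex, rose by 0.97.

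Of 13 genes of the spindle checkpoint, kinetochore and centromere protection, 11 were called lower and 2 higher, with a median log2 fold change of -1.04. Among all genes tested 37.5% were called lower and 36.5% higher. *Mad1l1*, *Knl1* and *Ndc80* fell by 1.72, 1.48 and 1.34 log2 units. *Ndc80*, which binds microtubules at the kinetochore, went from 53.9 to 55.1 TPM down to 19.7 to 21.7 TPM. *Bub1*, the checkpoint kinase that marks centromeres for shugoshin, rose by 0.93 (48.5 to 54.4 TPM against 81.6 to 101 TPM), and the weakly expressed *Sgo1* by 0.61. The TPM of *Sgo1* overlapped between genotypes, and its call was lost with limma on TPM.

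**Figure D4:**
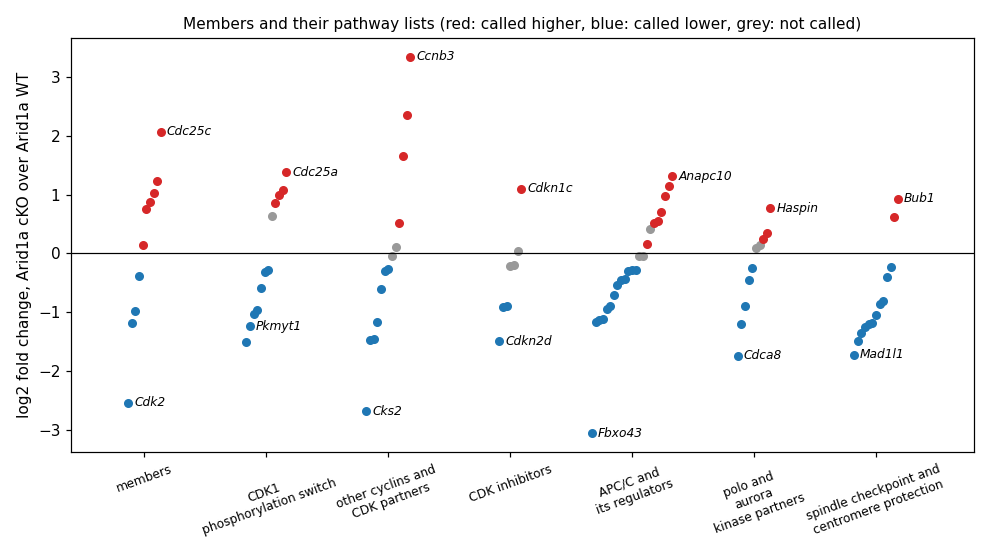
Log2 fold change, *Arid1a* cKO over *Arid1a* WT, of the 10 members and of the tested genes in 6 pathway lists, 1 point per gene, red for called higher, blue for called lower and grey for not called, with some genes named. *Cdk2*, *Cks2* and *Fbxo43* lie below -2.5, and 11 of 13 checkpoint genes lie below 0.

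Marker sets of testis cells moved alongside the members in the same libraries. Of the members called higher, only *Cdc25c* reached the range of the spermatid markers, on the count scale, which makes no allowance for transcript length. The log2 fold change of *Cdk2* (-2.53) was inside the range of the Leydig cell markers (-3.65 to -2.08). Among the Sertoli cell markers *Amh* alone was as low (-2.54, SE 0.34), on 2 to 32 counts a library, and the other 4 tested lay between -1.82 and -1.32. Of the 8 pachytene markers 6 were called lower, among them *Piwil1*, which fell by 3.88, and 2 were called higher, *Pgk2* (254 to 295 TPM against 678 to 730 TPM) and *Sycp1* (75.8 to 79.7 TPM against 132 to 144 TPM). Genes of the proliferation set were split, 4 of 6 called higher and 2 lower, with *Rrm2* up by 1.20 and *Pcna* down by 0.76.

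**Figure D5:**
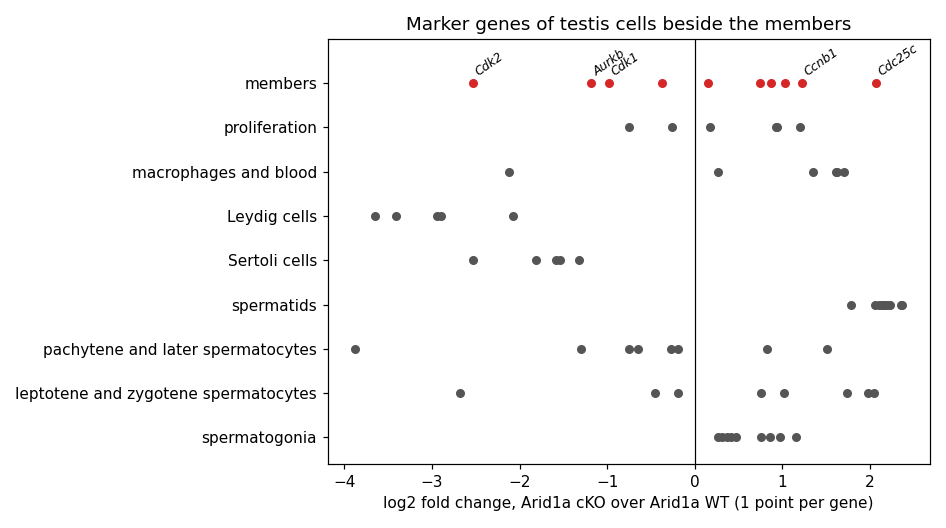
Log2 fold change, *Arid1a* cKO over *Arid1a* WT, of marker genes of testis cells and of the 10 members (red), 1 point per gene. The 10 spermatid markers cluster between 1.79 and 2.37, Leydig and Sertoli cell markers lie at -1.32 or below, and the members spread from -2.53 to 2.07.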

How the data were processed

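Reads were quantified by the authors with Salmon, and tximport gave gene-level values (Entrez identifiers, mm10). The authors deposited estimated counts and TPM for 4 *Arid1a* WT and 4 *Arid1a* cKO libraries. Estimated counts were deposited without scaling for library size or transcript length. TPM were scaled by the authors to the whole library, and the listed genes sum to 780735 to 811443 TPM in *Arid1a* WT and to 880901 to 886412 TPM in *Arid1a* cKO libraries. The authors' table of their own comparison (fold changes and p-values) was not used.

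Symbols were taken from RefSeq (GRCm38.p6, the same primary build as mm10) for 21036 of 21058 genes. Counts were rounded, genes with at least 10 counts summed over 8 libraries were kept, and genotype was tested with edgeR 4.0.16 (TMM, quasi-likelihood) in R 4.3.3. Standard errors were derived from log2 fold changes and F statistics. Alternatives used DESeq2 1.42.0, limma 3.58.1 on log2(TPM + 1) and log2(TPM + 0.1), other filters and scalings, length offsets recovered from counts and TPM, a replicate block and each library left out. On simulated counts of 17643 genes with 200 changed 2-fold, edgeR recovered 94.5%, and 6.44% of its calls were unchanged genes. Between the real genotypes 74.0% of genes were called, far more than were changed in the simulation. These rates therefore cannot be carried over to this comparison. Ratios were tested with SciPy 1.17.1. Words of 31 bases and exon overlaps came from GENCODE M21. 

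The members and lists were chosen with earlier results of these data known. All members, *Arid1a* and, per list, up to 3 called genes with the largest rise and 3 with the largest fall at an average log2 CPM of at least 1 are named, besides genes not called, and 1 gene that this rule selects is not reported here. Marker genes other than these were named after their values were seen. Of the listed symbols, 1 pathway and 1 spermatid symbol were not matched.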

Additional observations from a re-analysis of the deposited data

Results flagged for a closer look

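Each member, *Arid1a* and the 4 ratios were examined in each genotype for an extreme library by Dixon's gap over range. Of 30 groups 2 passed the 95% limit, where chance alone passes about 1 in 20. In *Arid1a* cKO replicate 2, *Cdk1* was high, at 56.1 TPM against 50.8 to 51.4 TPM in the other 3 (gap over range 0.898). In the same library the log2 *Aurkb*/*Aurkc* ratio was high, at -0.93 against -1.06 to -1.05 (gap over range 0.954). In CPM this library did not stand apart at *Cdk1*, at 33.7 against 31.3 to 34.7 in the other 3. Without it the difference of the ratio was -1.02.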

How the results depend on the processing

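Of the members, 9 of 10 kept their direction and their call under all 18 alternatives, as did *Arid1a*. *Ccna1* did not. Its log2 fold change of 0.15 went to 0.10 with length offsets (adjusted p = 0.113 from edgeR), 0.050 without TMM (adjusted p = 0.287 from edgeR), 0.0061 with limma on log2(TPM + 1) and 0.0062 on log2(TPM + 0.1), and reversed to -0.14, called lower, with limma on TPM rescaled to the listed genes (limma adjusted p = 0.0171). *Incenp* (-0.12) and *Plk4* (-0.012) reversed there too. That setting, chosen after seeing the data, changes the tool and the scaling together and gave a median of all genes of -0.13, against -0.02 with edgeR and -0.05 with limma on log2(TPM + 1). The cause of the reversals was not tested. Of 594 values for the 33 named pathway genes, 9 changed their call or direction.

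With each library left out in turn, *Ccna1* ranged from 0.13 to 0.17, *Cdk2* from -2.55 to -2.50, *Cdc25c* from 2.03 to 2.10 and *Aurkc* from -0.44 to -0.29, and 6 members were called higher and 4 lower each time.

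Same-numbered libraries of the genotypes come from different animals, and whether they were prepared together is not given in the sources used here. Their deviations correlated at -0.09 to 0.20, and 3 of 4 *Arid1a* cKO libraries correlated best with their own number. With the replicate number as a block, 6 members were called higher and 4 lower, with *Ccna1* at 0.15, and 22 and 46 pathway genes. Sign flips of same-number differences under this block left the ratio differences at -0.70 (*Ccna1*/*Ccna2*), 0.48 (*Ccnb1*/*Ccnb2*), 1.31 (*Cdk1*/*Cdk2*) and -0.99 (*Aurkb*/*Aurkc*) with the smallest exact p that 4 pairs allow, which is above 0.05.

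In CPM in place of TPM, the log2 ratio of summed marker levels was 0.67 for spermatogonia, -0.69 for leptotene and zygotene spermatocytes, 2.18 for spermatids, -1.70 for Sertoli cells, -3.07 for Leydig cells, 1.24 for macrophages and blood and -0.11 for proliferation, where TPM gave 0.42, -0.81, 2.04, -1.84, -3.45, 0.50 and -0.34. CPM weights long transcripts more than TPM. *Ccna2* had the fewest counts over the 8 libraries, and *Ccna2* and *Cdc25c* were the members with the fewest in *Arid1a* WT.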

Other observations

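Some ratios between members and their partners were computed after their values had been seen and are given as values. The TPM of *Ccnb1* and *Ccnb2* together was 1.75 to 1.95 times that of *Cdk1* in *Arid1a* WT libraries and 7.02 to 7.74 times in *Arid1a* cKO libraries. The TPM of *Ccna1* and *Ccna2* together was 1.78 to 1.96 times that of *Cdk2* in *Arid1a* WT and at least 9.86 times in each *Arid1a* cKO library. *Cks2* RNA stood at 3.63 to 4.11 times *Cdk1* RNA in *Arid1a* WT and at 1.13 to 1.37 times in *Arid1a* cKO. The ratio of *Cdc25c*, for an activator of CDK1, to *Pkmyt1*, for an inhibitor, was 0.137 to 0.173 in *Arid1a* WT and 1.13 to 1.27 in *Arid1a* cKO. RNA ratios do not measure the amounts of the proteins.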
